A study of Mus musculus with 4 samples.

Results

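Of 31150 barcodes kept from 4 single-cell libraries of mouse tumours, 284 (0.912%) were in a heat-shock state, defined here as 10 or more unique molecular identifiers (UMIs) of Hspa1a and Hspa1b together per 10000 UMIs of the barcode. These genes encode the inducible HSP70 chaperones. The barcodes were chosen by the UMIs of this gene pair, so its own levels are a description and carry no test. The tissue is labelled MB. It was dissociated fresh, captured with the 10x Genomics 3' kit of version V3 and sequenced on DNBseq instruments. There was 1 library for each genotype and sex. SG is fSMO-M2;hGFAPcre, an activated form of Smoothened, a protein of the Hedgehog pathway. It is switched on by a Cre that the human GFAP promoter drives, which acts in neural progenitors and their descendants. YSG is fYap1;fSMO-M2;hGFAPcre, the same alleles with floxed Yap1, described as rescued and taken at end point. All 4 groups therefore carry SMO-M2 and the Cre, and none lacks the tumour-driving allele. The ages, the zygosity and the number of animals behind a library are not stated in the labels.

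The heat shock response is run by the transcription factor HSF1, which chaperones hold inactive until unfolded proteins draw them away. HSF1 then binds inverted repeats of GAA in promoters and raises chaperones such as HSP70, HSP27 and their DnaJ partners. Heat, oxidative damage, proteasome block and the dissociation of tissue can all start it, and dissociation also raises immediate early genes such as Fos and Jun, which need no new protein to be transcribed.

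The matrices held from 58478914 to 86906706 UMIs and from 7289 to 8505 barcodes a library. A barcode entered with at least 500 UMIs and at least 300 genes, of which mitochondrial UMIs made up no more than 20%, and none of the 383 barcodes dropped reached the heat-shock threshold. Yap1 had 268 UMIs in SG male, 12 in YSG male, 377 in SG female and 3 in YSG female, over all deposited barcodes. UMIs come from the 3' end of transcripts and need not lie in the floxed exons. Kept barcode sequences found in more than 1 library numbered 87, and 1 heat-shock barcode was among them.

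The promoters of the chaperones that mark the state are printed because the response acts through them. Each is the 250 bases before the RefSeq gene start on GRCm38.p6, on the gene's own strand, with every match to GAANNTTC or TTCNNGAA in capitals. These letters are the inverted pair of GAA units that HSF1 recognises, both read the same on either strand, and neighbouring matches of the 2 forms may overlap. Hspa1a lies on the minus strand with its promoter at chr17:34972157-34972406, and Hspa1b on the same strand with its promoter at chr17:34959239-34959488. Hspb1, which encodes the small chaperone HSP27, has its promoter at chr5:135887669-135887918 on the plus strand. Dnajb1, which encodes the HSP40 co-chaperone of HSP70, has its promoter at chr8:83607925-83608174 on the plus strand.
Hspa1a: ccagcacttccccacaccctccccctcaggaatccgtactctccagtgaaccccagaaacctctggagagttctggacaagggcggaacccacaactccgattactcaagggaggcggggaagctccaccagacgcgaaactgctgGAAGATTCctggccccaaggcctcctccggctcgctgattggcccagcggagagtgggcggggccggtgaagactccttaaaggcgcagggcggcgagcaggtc
Hspa1b: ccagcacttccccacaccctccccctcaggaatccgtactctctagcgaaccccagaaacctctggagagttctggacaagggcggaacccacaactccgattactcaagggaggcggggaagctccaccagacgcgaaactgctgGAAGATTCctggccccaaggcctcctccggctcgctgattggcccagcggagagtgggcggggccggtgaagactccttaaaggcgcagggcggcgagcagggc
Hspb1: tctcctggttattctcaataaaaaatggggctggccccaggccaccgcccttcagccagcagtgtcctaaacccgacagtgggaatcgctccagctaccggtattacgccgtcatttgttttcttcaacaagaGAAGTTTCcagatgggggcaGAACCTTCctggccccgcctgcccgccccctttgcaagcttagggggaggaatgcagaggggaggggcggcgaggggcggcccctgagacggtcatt
Dnajb1: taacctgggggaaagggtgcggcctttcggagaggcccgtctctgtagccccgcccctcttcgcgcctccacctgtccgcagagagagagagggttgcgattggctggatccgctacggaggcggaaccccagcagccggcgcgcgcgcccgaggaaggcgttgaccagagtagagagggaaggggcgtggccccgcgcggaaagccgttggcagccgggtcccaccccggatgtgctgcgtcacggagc
The Hspa1a and Hspa1b promoters were identical at 247 of 250 bases, and each held 1 match, starting 104 bases before the gene start. Hspb1 held 2 matches, 117 and 97 bases before the start. Dnajb1 held none in this window, which says only that these letters are not there. Because Hspa1a and Hspa1b are near-identical copies, reads may be split between them or lost, and the rule uses their sum.

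Heat-shock barcodes were most frequent in the YSG male library. They were 57 of 8419 barcodes in SG male (0.677%, 95% Clopper-Pearson interval 0.513 to 0.876%), 128 of 7882 in YSG male (1.62%, 1.36 to 1.93%), 41 of 7656 in SG female (0.536%, 0.385 to 0.726%) and 58 of 7193 in YSG female (0.806%, 0.613 to 1.04%). The YSG male interval lay above those of the other 3 libraries, which overlapped one another. The intervals cover counting error only, and with 1 library a group the shares were not tested. Thinning to 2000 UMIs used only barcodes with at least 2000, and 2 or more rule UMIs then counted as the state. The shares were 1.07% of 7954 in SG male, 2.52% of 7375 in YSG male, 0.847% of 7202 in SG female and 0.990% of 6664 in YSG female. SG male and YSG female changed places in the order, over a smaller set of barcodes than above.

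Within these barcodes the rule genes together stood at 2407 CPM (UMIs per 1000000) in SG male, 1989 in YSG male, 1982 in SG female and 2306 in YSG female. The 4 libraries were close to each other here. In the remaining barcodes the same sum was 11.4, 39.7, 8.82 and 8.65 CPM in that order, so the YSG male library was also the highest outside the state. Hspa1a gave 60.7% of the rule's UMIs and 207 of the 284 barcodes had both genes. Values ran from 10.1 to 149 UMIs per 10000 with a median of 17.1. The call rested on fewer than 3 UMIs in 12 barcodes and on 5 or more in 235. Just inside the threshold, 62 barcodes lay from 10 to under 12, and just outside, 84 lay from 8 to under 10.

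**Figure D1:**
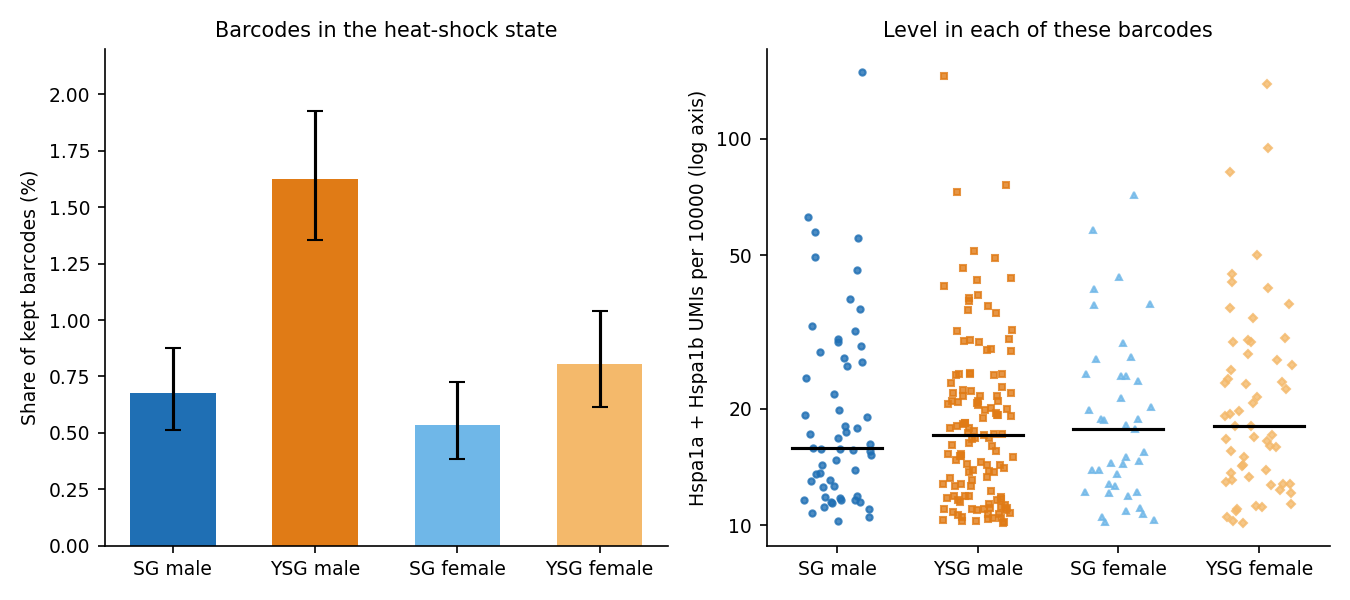
Left, share of kept barcodes in the heat-shock state in each library, with 95% Clopper-Pearson intervals that cover counting error only. Right, the Hspa1a and Hspa1b level of each of these barcodes as a point on a log axis, with the library's median as a line; the share is highest in YSG male at 1.62%, while the library medians within the state lie between 15.9 and 18.1.

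The barcodes were shallower than the rest of their libraries and had a lower mitochondrial share. Their median UMI count was 3648 in SG male, 5178 in YSG male, 4837 in SG female and 5194 in YSG female, against 6218, 5887, 7443 and 6696 in the remaining barcodes. Their median mitochondrial share was 2.84%, 2.99%, 2.52% and 3.44%, against 3.86%, 3.77%, 4.21% and 4.23%. Scrublet scores above each library's top 6% mark fell on 1, 6, 0 and 1 of them.

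The label of tumour cells was checked with markers of the granule neuron lineage, from which Hedgehog-driven tumours of the cerebellum arise. Of the 284 barcodes, 272 (95.8%) held 3 or more UMIs of granule progenitor or granule neuron markers, against 97.2% of the remaining barcodes. The same count was reached by 51.1% of the 45 barcodes with endothelial markers (median 7690 UMIs), by 39.1% of the 92 with microglial or macrophage markers (median 2774.5 UMIs), by 85.1% of the 94 with fibroblast or mural markers (median 15916.5 UMIs) and by 76.9% of the 26 heat-shock barcodes with narrow markers of other types introduced next. The medians of all heat-shock and remaining barcodes were 4636.5 and 6523 UMIs. The count therefore does not by itself separate the lineage from other cells, and these markers do not tell tumour cells from normal granule cells. Astroglial genes were found widely, and the planned marker rule for other cell types marked 60.2% of heat-shock and 73.1% of remaining barcodes. A stricter rule, added after this was seen, used only markers found in under 15% of barcodes in each library. It marked 26 heat-shock barcodes (9.15%) and 5.69% of the remaining ones.

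Pooled over the 4 libraries, the share in the state was higher among vascular and stromal barcodes than among those with no marker of another type. Of 45 barcodes with endothelial markers such as Cldn5 and Pecam1, 7 were in it (15.6%, 6.49 to 29.5%), and of 94 with fibroblast or mural markers such as Dcn and Col1a1, 7 were (7.45%, 3.05 to 14.7%). Among barcodes with none of the narrow markers the share was 258 of 29367 (0.879%, 0.775 to 0.992%). These intervals cover counting error over the pooled barcodes only, which are not replicates, and the shares were not tested. Oligodendrocyte markers were on 8 heat-shock barcodes of 351, OPC markers on 8 of 327 and astroglial markers on 8 of 1174. A barcode can carry more than 1 type. The types were spread unevenly: 5 of the 7 fibroblast or mural barcodes came from SG male, 6 of the 7 endothelial ones from the female libraries, and 5 of the 8 with oligodendrocyte markers from YSG male. Those libraries also held many of the barcodes of these types: SG male had 45 of the 94 fibroblast or mural barcodes, the female libraries had 30 of the 45 endothelial ones, and none of the 11 endothelial barcodes of SG male was in the state. For this reason the counts of each gene list below are given over all 284 barcodes and again without the 26. Every fit described as without the 26 also leaves out the 1757 remaining barcodes with narrow markers. Its reference group therefore changes too.

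Across genes, the heat-shock barcodes were compared with the remaining barcodes of the same library. UMIs were summed per library and state after removing Hspa1a and Hspa1b, which gave 8 sums, and edgeR's quasi-likelihood test with the library as a block was adjusted by Benjamini-Hochberg over all genes tested. Of 14234 genes, 1033 were called higher (7.26%) and 1183 lower (8.31%) at an adjusted p under 0.05. With DESeq2's size factors and test, 1010 were called higher and 606 lower, and limma on the 4 within-library differences called 109 and 368. Without the 26 barcodes, 737 of 13804 were called higher (5.34%) and 1001 lower (7.25%). Of the calls over all barcodes, 566 of the higher (54.8%) and 874 of the lower (73.9%) were called in both, which was 76.8% and 87.3% of the calls without the 26. Counts depended on single libraries: without YSG female 519 were called higher and 502 lower, without SG female 640 and 727, and without SG male 695 and 632. Nothing in the labels says whether a library pools animals. The library block takes out differences in level between libraries. The p-values therefore measure how the state difference varies over 4 libraries of 2 genotypes and 2 sexes. That variance also borrows from other genes, through 13.0 prior degrees of freedom.

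Chaperones beyond the rule's own pair moved in both directions. Of 48 tested, 18 rose and 11 fell, with a median log2 fold change of 0.02 against −0.03 over all genes, and without the 26 barcodes 17 rose and 10 fell. The shares of all genes called were 7.26% higher and 8.31% lower, and 5.34% and 7.25% without the 26. Limma on the 4 within-library differences called 4 chaperones higher and 0 lower, against 109 and 368 of all 14234 genes. Under it the calls of Hspa8, Hsp90aa1, Hspd1, Hspa9, Hspa4, Cct8 and Cct2 below end. Chaperones of one compartment went both ways: of those in mitochondria, Hspd1 and Hspe1 rose and Hspa9 fell.

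Hspb1, a small chaperone that holds unfolded proteins soluble, stood at 461 CPM in SG male, 707 in YSG male, 723 in SG female and 708 in YSG female, against 20.9, 47.1, 25.6 and 22.1 CPM in the remaining barcodes. Every library was higher in the state and the ranges did not overlap. The log2 fold change was 4.47 ± 0.15 (SE, 4 libraries; 22.1-fold; edgeR adjusted p = 3.89e-11), and 4.25 without the 26 barcodes. Dnajb1 stood at 884, 663, 1135 and 700 CPM against 80.3, 126, 65.1 and 59.3 CPM. Its ranges did not overlap either, and the log2 fold change was 3.30 ± 0.19 (9.87-fold; edgeR adjusted p = 1.15e-08). The label's markers outside the rule therefore rose in all 4 libraries.

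Other HSP70 and HSP90 genes rose by smaller factors. Hspa8, the constitutive HSP70, stood at 3690, 4072, 3844 and 3050 CPM in the SG and YSG male and the SG and YSG female library, against 1302, 2319, 1212 and 1229 CPM. The log2 fold change was 1.26 ± 0.10 (edgeR adjusted p = 6.30e-07), and the YSG male library had the highest level both in and outside the state. Hsp90aa1, the inducible HSP90, rose by 1.19 on the log2 scale, and Hsph1, a nucleotide exchange factor of HSP70, by 1.54. Hspe1 and Hspd1, which form the mitochondrial chaperonin, rose by 1.29 and 0.68.

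Chaperones of mitochondria and of the cytosol were also among those that fell. Hspa9, the HSP70 of mitochondria, stood at 138, 214, 215 and 154 CPM against 362, 371, 394 and 335 CPM, below every value outside the state, with a log2 fold change of −1.05 ± 0.12 (edgeR adjusted p = 3.14e-05). Hspa4, an HSP110-type partner of HSP70, fell by 0.75 on the log2 scale. Of the 8 listed subunits of the CCT chaperonin, which folds actin and tubulin, 6 fell and none rose, among them Cct8 at −0.55 and Cct2 at −0.40. Dnajb6, which keeps aggregation-prone proteins soluble, did not pass the test (log2 fold change −0.30, edgeR adjusted p = 0.0524). Cryab, a small chaperone of glia and muscle, was called higher at 2.88 over all barcodes and stood at 0.37 without the 26 (edgeR adjusted p = 0.679).

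**Figure D2:**
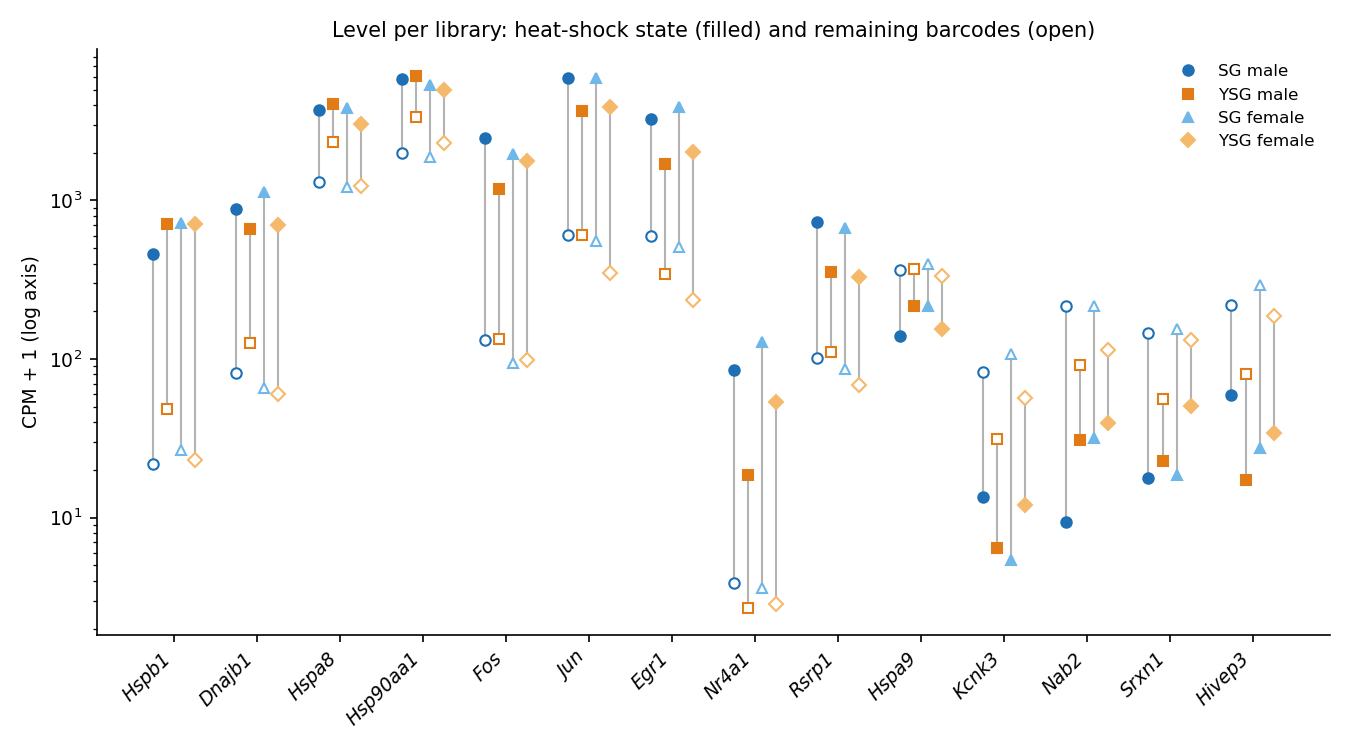
CPM + 1 on a log axis for 14 genes in the heat-shock state (filled) and in the remaining barcodes (open) of each library, joined by a line. The 4 libraries move the same way for each gene plotted: Hspb1 is at 461 to 723 CPM in the state against 20.9 to 47.1 outside it, and Nab2 at 8.38 to 38.6 against 91.2 to 215.

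Immediate early genes rose as a group. Of 40 tested, 29 rose and 5 fell, with a median log2 fold change of 1.76, and without the 26 barcodes 27 rose and 5 fell. Among all genes 7.26% were called higher and 8.31% lower, and 5.34% and 7.25% without the 26. Limma on the differences called 17 higher and 1 lower, against 109 and 368 of all 14234 genes. Together the listed genes took 2.55% of UMIs in SG male, 1.61% in YSG male, 2.63% in SG female and 1.82% in YSG female, against 0.588%, 0.590%, 0.532% and 0.460% in the remaining barcodes. These genes were on the list for dissociation stress as well as growth signals, and what raised them was not tested.

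Fos, which forms the AP-1 transcription factor with Jun, stood at 2463, 1184, 1955 and 1763 CPM in the SG and YSG male and the SG and YSG female library against 131, 132, 93.5 and 97.6 CPM. Every library rose and the ranges did not overlap, with a log2 fold change of 3.92 ± 0.15 (15.2-fold; edgeR adjusted p = 9.98e-11). Jun stood at 5906, 3663, 5883 and 3855 CPM against 605, 600, 554 and 346 CPM, a log2 fold change of 3.14 ± 0.11. Within the state both SG libraries were above both YSG libraries for Fos, Jun and Egr1. Among barcodes with 0 UMIs of the rule genes the same order held for Jun and Egr1 but not for Fos. There Egr1 stood at 570 and 481 CPM in SG male and female, against 278 and 205.5 in YSG male and female. Jun stood at 550 and 516 CPM against 470 and 305, and Fos at 101.5 and 68.95 against 94.33 and 74.89. Egr1, a zinc finger factor induced by growth factors, rose by 2.64.

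Other early genes moved as far. Nr4a1, an orphan nuclear receptor, rose by 4.68 ± 0.35, Fosb by 3.82 ± 0.24 and Npas4, an activity-induced factor of neurons, by 3.77. Btg2, an antiproliferative gene, rose by 3.26, Dusp1, a phosphatase that switches off MAP kinases, by 3.24, and the stress factor Atf3 by 2.90. Ccn1, a secreted matrix protein also listed as a YAP target, rose by 3.81 over all barcodes and by 1.62 without the 26. The 5 that fell included Fosl1, another AP-1 subunit, at −1.46 ± 0.30.

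None of the 12 genes with the largest falls was a chaperone. Nab2, a corepressor that binds Egr proteins, stood at 8.38, 29.9, 30.7 and 38.6 CPM in the SG and YSG male and the SG and YSG female library against 215, 91.2, 215 and 113 CPM. The ranges did not overlap, and the log2 fold change was −2.28 ± 0.26 (edgeR adjusted p = 3.01e-05). Etv5, an ETS factor downstream of FGF and MAP kinase, fell by 1.68, Vldlr, a receptor of reelin, by 2.01, and Srxn1, which reactivates oxidised peroxiredoxins, by 1.98. Kcnk3, a background potassium channel, fell by 2.90 ± 0.31, from 30.3 to 107 CPM outside the state to 4.38 to 12.6 CPM in it.

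Hivep3, a zinc finger protein, stood at 58.6, 16.3, 26.3 and 33.1 CPM against 218, 79.6, 292 and 184 CPM and fell by 2.53 ± 0.20. The remaining named falls were Acvr1c, a type I activin receptor, at −2.64, Mical2, which oxidises actin, at −2.40, Arl14ep at −2.01, 6430548M08Rik at −1.85, Plxna2, a semaphorin receptor, at −1.79, and Mfap3l at −1.68. All 12 genes with the largest falls fell in each of the 4 libraries, as the rule for naming them required, and all 12 stayed called without the 26 barcodes. Under limma on the 4 within-library differences only Etv5 and Hivep3 of these 12 stayed called. Low counts limit these values, since the heat-shock sums of a library held only 228123 to 735101 UMIs.

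Most of the largest rises were in genes known from other cell types. Of the 15 genes with the largest rises, Hspb1, Fos and Nr4a1 stayed called without the 26 barcodes, at 4.25, 3.95 and 4.33. Vtn, Igfbp7 and Cp, made by pericytes, vessels and astroglia, rose by 6.81, 5.97 and 4.09 over all barcodes, and had too few UMIs to be tested without the 26. Ptgds, the prostaglandin D synthase of the meninges, stood at 235, 292, 285 and 35.8 CPM against 8.35, 6.02, 1.005 and 1.95 CPM, a log2 fold change of 5.65, which was −0.03 without the 26 (edgeR adjusted p = 0.992). Apod, a lipocalin of glia and fibroblasts, went from 5.42 to −0.14, and Ccdc141 from 4.005 to −0.06. Id3, Vwa1, Ifitm3, Pltp and Egfl7, all abundant in vessels, rose by 3.98 to 4.56 over all barcodes and none was called without the 26. Rbpms, an RNA-binding protein of vessels and muscle, rose by 3.85 and stayed called at 2.23.

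**Figure D3:**
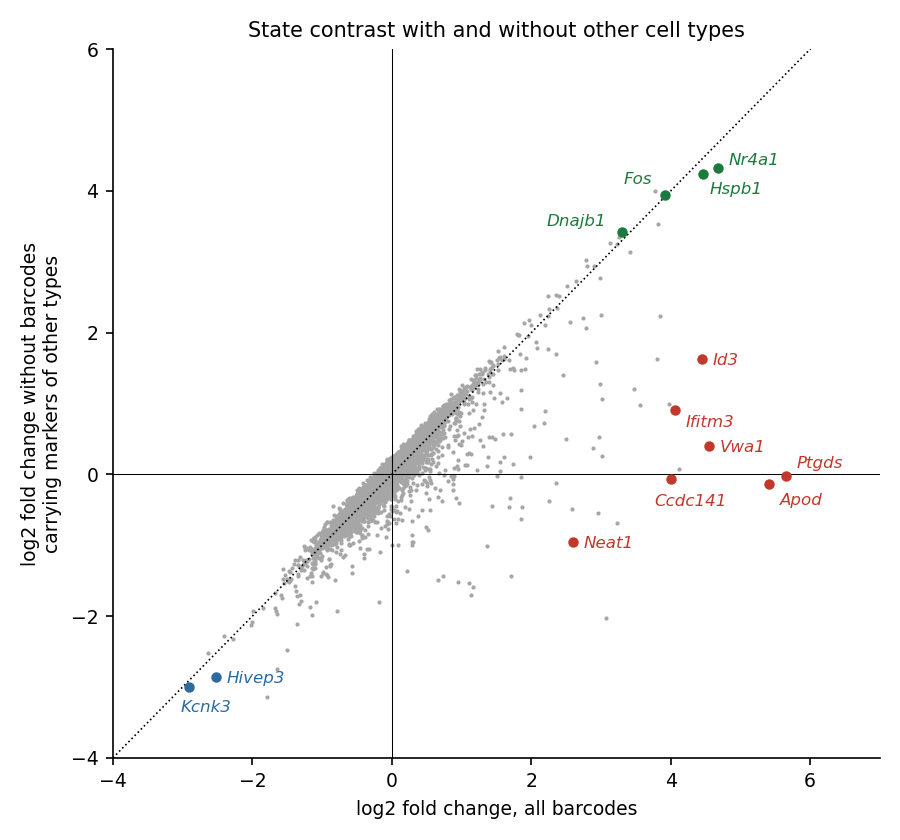
log2 fold change of heat-shock against remaining barcodes over all barcodes (horizontal axis) and without barcodes carrying narrow markers of other types (vertical axis), for genes at 20 CPM or more on average; the dotted line marks equal values. Hspb1, Dnajb1, Fos and Nr4a1 lie near the line and Kcnk3 and Hivep3 near it on the falling side, while Ptgds and Apod drop from 5.65 and 5.42 to about 0; 4 genes lie outside the axes and 14 could not be tested on the vertical axis.

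Genes of other stress pathways moved in part. For this and the lists below, the shares over all genes were 7.26% called higher and 8.31% lower. Without the 26 barcodes they were 5.34% and 7.25%. In the unfolded protein and integrated stress list 8 of 29 rose and 6 fell (median −0.08), and without the 26 barcodes 7 rose and 7 fell. Dnajb9, a co-chaperone of the endoplasmic reticulum, rose by 2.19 ± 0.18, Ppp1r15a, which restores translation by dephosphorylating eIF2α, by 2.06 ± 0.17, and Hspa5, the HSP70 of the endoplasmic reticulum, by 1.03. Calr, a calcium-binding chaperone there, stood at −0.16 and did not pass. Of 18 genes of oxidative and metal stress, 2 rose and 3 fell (median −0.02), and without the 26 barcodes 1 rose and 3 fell (median −0.36). So few calls do not set this list apart from all genes. The zinc exporter Slc30a1 rose by 0.96, and Srxn1 and Me1, targets of NRF2, fell by 1.98 and 1.36.

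In the p53 and apoptosis list 8 of 27 rose and 1 fell (median 0.26), and without the 26 barcodes 7 of 26 rose and 1 fell. Over all genes 7.26% were called higher and 8.31% lower. Gadd45b, a growth arrest gene, stood at 260, 204, 320 and 196 CPM against 45.1, 46.3, 34.7 and 28.8 CPM and rose by 2.56 ± 0.16. Plk2 rose by 2.36 and Bbc3, which encodes the killer protein PUMA, by 1.55, and all 3 stayed called without the 26. Of 39 genes of the proteasome and ubiquitin system, 4 rose and 16 fell (median −0.35), and without the 26 barcodes 5 rose and 12 fell. The proteasome subunits Psmd12 and Psmc1 fell by 0.77 and 0.73. The ubiquitin-conjugating enzyme Ube2d3 stood at 0.18 and did not pass, and without the 26 barcodes it was called at 0.33.

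Inflammatory genes rose over all barcodes and partly lost the call without the other types. Of 17 genes of the NF-kB list, 12 rose and none fell (median 2.10), and without the 26 barcodes 5 of 14 rose. Nfkbiz, a nuclear regulator of NF-kB, rose by 2.93 and then 1.58, and the chemokine gene Cxcl10 by 2.74 and then 2.21. The chemokine gene Cxcl1 rose by 3.57 and was not called without the 26 (0.97, edgeR adjusted p = 0.485). In the interferon and MHC list 6 of 17 rose over all barcodes (median 0.96) and 0 of 14 without the 26. B2m, the light chain of MHC class I, went from 0.96 to 0.43, and H2-K1, a heavy chain, from 1.51 to −0.03. Endothelial markers summed to 16.7, 43.5, 579 and 945 CPM in the heat-shock barcodes of the SG and YSG male and the SG and YSG female library, against 4.11 to 11.6 CPM in the remaining barcodes.

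Regulators of splicing moved in both directions, 7 of 28 rising and 4 falling (median −0.05), and 8 and 2 without the 26 barcodes (median 0.05). The shares over all genes were 7.26% higher and 8.31% lower. Rsrp1, an arginine and serine rich protein, stood at 725, 352, 666 and 328 CPM in the SG and YSG male and the SG and YSG female library against 100, 110, 85.4 and 67.7 CPM. The ranges did not overlap, and it rose by 2.37 ± 0.16 (edgeR adjusted p = 1.19e-07). Clk1, a kinase that phosphorylates splicing factors and whose own transcript keeps introns until stress, rose by 1.61 ± 0.14, and Tra2a, a splicing activator, by 1.61 ± 0.12. The helicase gene Ddx5 stood at −0.20 and did not pass. Of 9 nuclear RNAs, 5 rose and 2 fell (median 0.46), and without the 26 barcodes 4 rose and 2 fell. Gm26917 rose by 1.07 and Rian fell by 1.65, and Neat1, the RNA of paraspeckles, went from 2.61 over all barcodes to −0.95 without the 26.

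Transcripts of the mitochondrial genome fell, 10 of 13 lower and none higher (median −0.37), with and without the 26 barcodes, while limma on the differences called none of them. The complex I genes mt-Nd3, mt-Nd1 and mt-Nd5 fell by 0.59, 0.54 and 0.47, and mt-Nd4l stood at −0.17. Genes of the cytosolic ribosome were mostly not called, with 5 of 52 higher by at most 0.38, but 9 were called higher without TMM, 12 with DESeq2 and 10 without the 26 barcodes. Among the 5 were Rps15 at 0.38, Rps3 at 0.34 and Rps6 at 0.30. The lower mitochondrial share per barcode given above was from the same UMIs, and what lowered it was not tested.

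Genes of the programmes that mark the tumour cells were called at a share near that of all genes, which was 7.26% higher and 8.31% lower. Of 17 Hedgehog target genes 1 rose and 2 fell (median 0.17), with the same counts and a median of 0.45 without the 26 barcodes. Atoh1, the transcription factor of granule progenitors, fell by 1.39 ± 0.28, and Ccnd2, a cyclin of their division, by 0.58 ± 0.10. Igf2, which rose by 2.97 over all barcodes, stood at 0.53 without the 26, and Sfrp1, a Wnt antagonist, stood at 0.36 and did not pass (edgeR adjusted p = 0.0868) over all barcodes but was called at 0.57 without the 26 (edgeR adjusted p = 0.00187). Of 33 granule neuron differentiation genes 3 rose and 2 fell (median −0.05), and without the 26 barcodes 5 rose and 1 fell (median 0.11). Astn1, an adhesion protein of migrating granule neurons, and Neurod6 rose by 0.77 each, and Gap43, a protein of growth cones, fell by 0.57.

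Few cell cycle genes were called over all barcodes, and more of the G2 and M phase genes without the 26. Of 31 S phase genes 4 rose and none fell (median 0.09), and 4 rose without the 26 (median 0.23). They included Slbp, Cdc6 and Dtl at 0.79 to 0.86, but Cdc6 was lower in YSG female (16.5 against 19.9 CPM). The list's median log2 ratio of CPM + 1 was −0.05 in SG male, 0.38 in YSG male, 0.22 in SG female and −0.20 in YSG female. Of 32 genes of G2 and M phase 3 rose and none fell (median 0.0017), Aurka by 1.02, Kif23 by 0.78 and Hmmr by 0.75. Their medians by library, in the same order, were 0.03, 0.43, −0.21 and −0.09. Without the 26 barcodes 6 of the 32 rose (median 0.18), where 5.34% of all genes did. Top2a, the topoisomerase of dividing cells, stood at 0.13 and did not pass, and without the 26 barcodes it was called at 0.34. Of 16 histone genes 2 rose and 2 fell (median 0.10), and without the 26 barcodes 5 rose and 2 fell (median 0.27). Over all barcodes Hist1h2ae rose by 0.78, Hist1h2bc rose by 0.61, Hist1h1e fell by 0.54, and H3f3b stood at −0.12 and was not called.

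The metabolic genes that were called were mainly higher, against 7.26% called higher over all genes. Of 24 cholesterol genes 5 rose and 1 fell with and without the 26 barcodes (medians 0.22 and 0.27), the synthesis genes Msmo1 and Dhcr7 by 0.83 and 0.79, while Idi1 stood at −0.44 and did not pass. Of 24 glycolysis and hypoxia genes 6 rose and 1 fell (median −0.03), and 3 rose and 1 fell without the 26 barcodes. The glucose transporter Slc2a3 rose by 1.13 and then 1.25, Vegfa, a growth factor of vessels, by 0.76 and then 0.86, and Slc2a1, the glucose transporter of brain vessels, was called at 3.02 over all barcodes alone.

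Targets of YAP and TAZ were examined because Yap1 is the floxed gene. Of 19 tested, 5 rose and 4 fell (median 0.57), and without the 26 barcodes 3 of 17 rose and 3 fell (median −0.45). Amotl2, a scaffold that restrains YAP, stood at 117, 47.6, 101 and 71.6 CPM in the SG and YSG male and the SG and YSG female library against 13.9, 18.8, 13.5 and 13.8 CPM. It was higher in the state in each of the 4 libraries, which together gave a rise of 2.24 ± 0.27, and of 1.78 without the 26. The YSG minus SG difference of this rise was −1.215 on the log2 scale and was not called (edgeR adjusted p = 0.7375). The list shares Ccn1 and Gadd45b with the lists above.

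**Figure D4:**
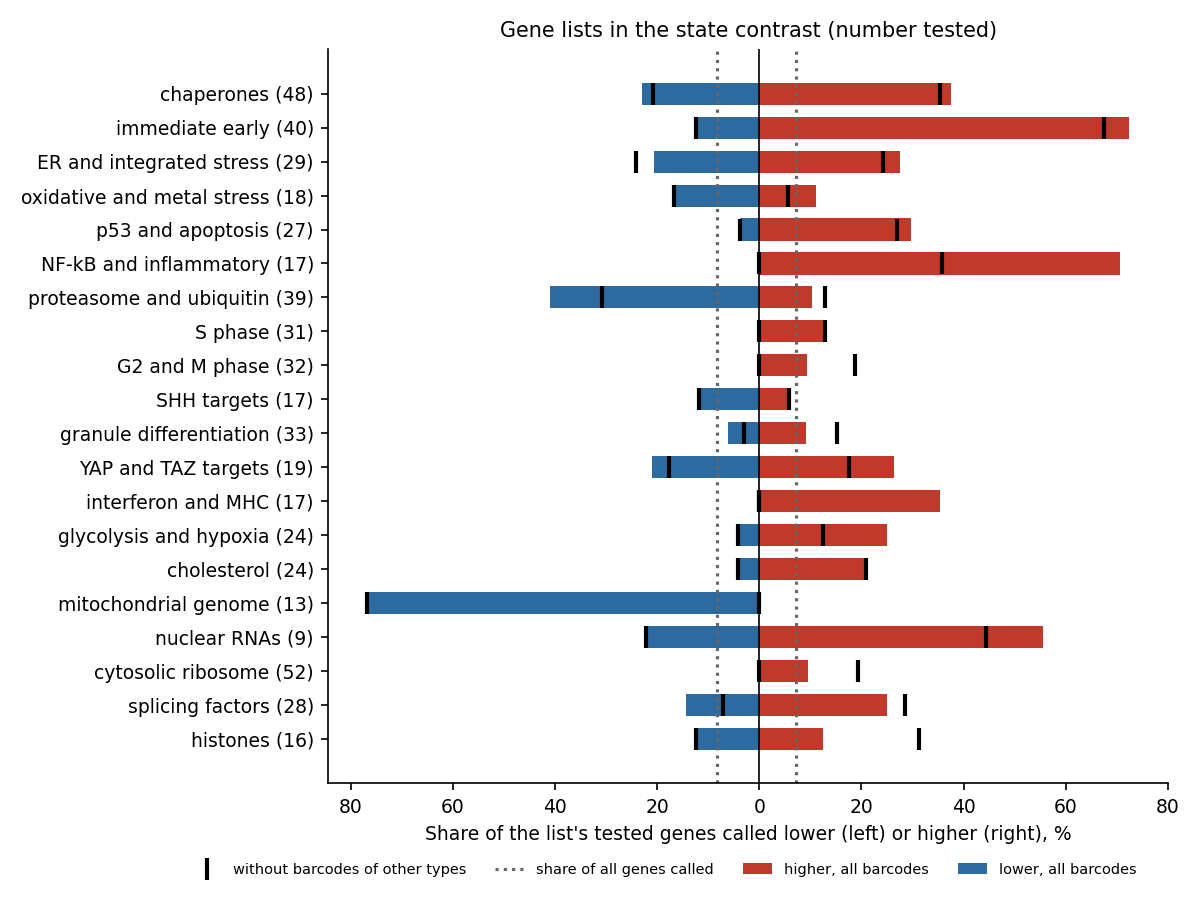
Share of each list's tested genes called lower (left) or higher (right) in the state contrast, with the number tested in brackets. Black marks give the same shares without the barcodes of either state that carry narrow markers of other types. Dotted lines stand at the shares over all genes, 8.31% lower and 7.26% higher. Immediate early genes (29 of 40 higher) and mitochondrial transcripts (10 of 13 lower) lie far from the dotted lines in both fits, and the interferon list falls from 6 to 0.

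Levels of other genes changed stepwise with the rule's own value. In 5 bands of the rule's own value, from 0 to under 50 UMIs per 10000, Hspb1 stood at 15.7 to 28.5 CPM over the 4 libraries at 0, at 63.0 to 146 CPM above 0 and under 5, at 198 to 330 CPM from 5 to under 10, at 418 to 650 CPM from 10 to under 20, and at 651 to 967 CPM from 20 to under 50. It rose at each step in every library. Dnajb1 and Jun did the same except that Jun in YSG male went from 3607 to 3372 CPM at the last step. Fos rose at each step but the last in YSG male, where it went from 1294 to 933 CPM.

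The 12 genes with the largest falls had lower values near the threshold, though not always step by step. In 48 of their 48 pairs of gene and library the level from 5 to under 10, outside the state, was below that at 0. From 10 to under 20 it was below that at 0 in 47, and in 29 it went down at each step up to there. The bands from 10 up hold the heat-shock barcodes by whose falls these genes were chosen. Lower values in those bands therefore follow largely from the choice. Acvr1c in SG female went from 10.3 to 26.4 and 42.7 CPM over the bands from 5 to under 50. Hivep3 went from 84.7 to 296 CPM at 0 to 16.4 to 45.1 CPM from 10 to under 20. Nab2 went from 94.8 to 220.5 CPM at 0 to 12.9 to 57.2 CPM from 10 to under 20, with a step up in YSG female from 17.35 to 57.2 CPM at the threshold. Barcodes below the threshold, which the contrast counts as remaining, thus held intermediate values of Hspb1 and Hivep3. With remaining barcodes limited to those with 0 UMIs of both rule genes, 1130 genes were called higher and 1118 lower. Bands at 50 or more held 2 to 4 barcodes a library and are not described.

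**Figure D5:**
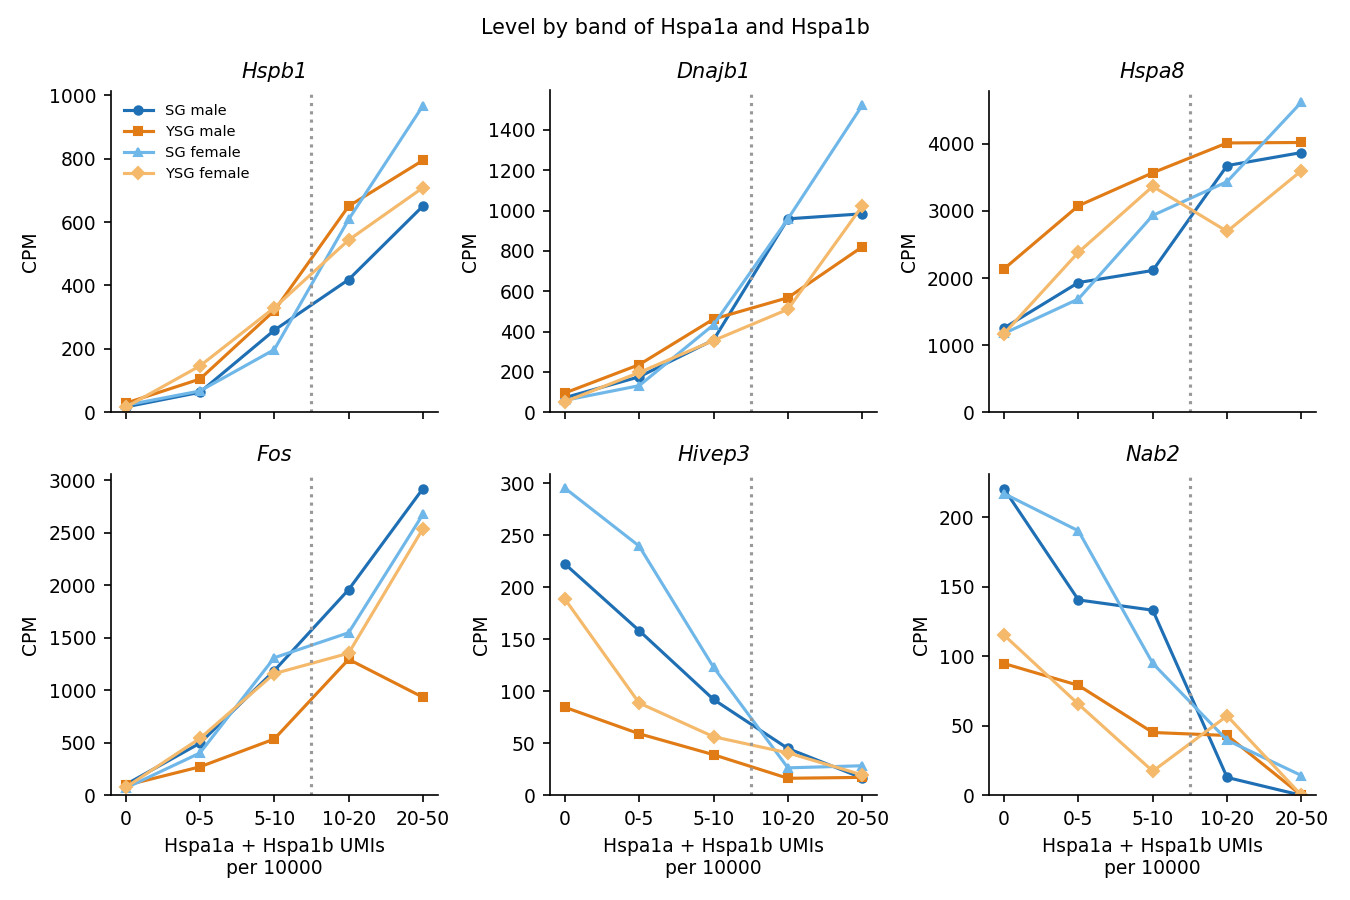
CPM of 6 genes (vertical axes from 0) in barcodes binned by Hspa1a and Hspa1b UMIs per 10000, 1 line per library; the dotted line marks the threshold of 10. Hspb1 climbs at each step in all 4 libraries, from at most 28.5 CPM at 0 to at least 651 CPM at 20 to under 50. Hivep3 and Nab2, which were chosen for their falls in the state, are lower in the last band than at 0 in every library.

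SG and YSG were compared by testing whether the state's effect on a gene differed between genotypes, with 2 libraries a genotype. Of 14234 genes 1 was called by edgeR (0.00703%) and 887 had an unadjusted p under 0.05. Without the 26 barcodes 0 genes were called, with 861 at an unadjusted p under 0.05. Leaving out 1 library leaves a genotype with a single library and no replicate, so such a fit cannot check this result.

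No chaperone or immediate early gene of the lists was called in this test. The difference YSG minus SG was −0.23 ± 0.34 for Hspb1, −0.85 ± 0.37 for Dnajb1 and −0.63 ± 0.28 for Fos on the log2 scale, and −1.32 ± 0.37 for Fosb, with edgeR adjusted p from 0.712 to 0.9005. All 4 estimates were negative, and a p that misses the threshold does not show that the genotypes act alike. The older quasi-likelihood of edgeR, with 1193 prior degrees of freedom against 13.0 here, called 80 genes, with Dnajb1 (adjusted p = 0.00321), Fos (0.0233) and Fosb (2.04e-06) among them, and DESeq2 called 19. The level outside the state differed too: Dnajb1 stood at 126 CPM in the remaining YSG male barcodes against 59.3 to 80.3 CPM in the other libraries.

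The inverted GAA pair was counted in promoters as a description. It was in 14.6% of the 27025 mouse promoters of the RefSeq table, in 11.9% of the 10640 promoters of genes tested, in 12.3% of those of genes called higher and in 12.7% of those called lower. Of the 14 rising chaperones whose promoter was listed, 8 held it (57.1%), and of the 26 rising immediate early genes 4 did (15.4%). A run of 3 alternating units was in 0.451% of promoters of genes tested, and among the rising chaperones in those of Hspd1 and Hspe1, which are neighbours on opposite strands.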

How the data were processed

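Counts were deposited per gene and barcode as whole numbers of UMIs, not normalized, and Cell Ranger 5.0.1 made them per the file headers, with the mm10 build per the submitters' processing notes. The members and gene lists were chosen with earlier results of these data known. Sums per library and state, without Hspa1a and Hspa1b, were scaled by TMM, filtered with filterByExpr and tested with edgeR 4.0.16 (R 4.3.3), with the library as a block, so the 2 sums of a library were the pair. The newer quasi-likelihood was made the main fit after both versions had been seen, because the older one set 1193 prior degrees of freedom on 4 libraries. The standard error is the log2 fold change divided by the root of the F statistic. The rule on narrow markers was first set at 5% detection, which left too few astroglial genes, and then at 15%. Alternatives used DESeq2 1.42.0 and limma 3.58.1, and a limma fit with a mean trend was discarded as mis-specified. Named genes were the 15 largest rises and 12 largest falls called in the same direction in all 4 libraries at 20 CPM or more on average, with up to 3 called genes and 1 uncalled gene per list. Of the 101 genes this named, 87 are in the report. Some of the others are not reported here, and 11 uncalled ones, at −0.25 to 0.078 on the log2 scale, were left out of the report and of the alternatives after their values and changes of sign were seen (among them Ftl1, Gapdh, Kcnq1ot1, Mndal, Nfib, Nfkb1, Pcna, Rpl13, Tgfb2, Zfp36l1), and 17 more (the chaperones and early genes beyond 3 a list, and Hspa5) were chosen after their values were seen. Scrublet in scanpy 1.11.5 marked no doublet at its own threshold, so doublets were removed only in an alternative, at the top 6% of scores. The fit was tested on simulated counts. Promoters are RefSeq's, on GRCm38.p6.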

Additional observations from a re-analysis of the deposited data

How the results depend on the processing

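Heat-shock sums of 228123 to 735101 UMIs a library limit what can be called for scarce transcripts, and 4 libraries limit every p. Over 22 alternatives, of which the older quasi-likelihood, its robust form, both limma fits and the narrow markers were added after the data were seen, 1992 of 2273 values of the 104 genes in the text kept their direction and their side of the threshold, 240 lost the call, 28 gained it and 13 reversed. This tally leaves out genes dropped after their changes of sign were seen: over all 118 genes that the naming rule took or the text names, 2221 of 2579 values were kept and 81 reversed; where no cause is given it was not tested. The newer quasi-likelihood was chosen with both versions seen, and the older one called 1091 genes higher and 1453 lower in the state contrast and 80 for state by genotype; its robust form called 1100 and 1445. Limma on the within-library differences called 109 higher and 368 lower, with 4 and 0 listed chaperones and 17 and 1 immediate early genes, and 69 of the 104 genes lost the call, among them Nab2, Kcnk3, Hspa8 and Hspa9, while Hspb1, Dnajb1, Fos, Jun, Egr1 and Hivep3 stayed called. Limma-voom called 2058 and 447, with 7 chaperones lower and a median over all genes of 0.12 against −0.03, and DESeq2 1010 and 606, with 1380 genes given no adjusted p. Without the library as a block (no replicate block) 577 were called higher and 780 lower, and 24 of the 104 genes lost the call. For state by genotype, leaving out a library leaves a genotype without a replicate, so no count of calls is given. The state contrasts with each library left out gave 519 to 695 higher and 502 to 874 lower. They gave 15 to 18 chaperones higher and 6 to 11 lower, and 26 to 28 immediate early genes higher and 5 to 6 lower. In these, 22 genes lost the call at least 1 time, namely 6430548M08Rik, Astn1, Aurka, B2m, Cct2, Cdc6, Cryab, Dhcr7, Egfl7, H2-K1, Hist1h1e, Hist1h2ae, Hist1h2bc, Kif23, Me1, Mfap3l, Neurod6, Psmc1, Rps15, Rps3, Rps6 and Vegfa, and Top2a, not called, stood at −0.083 to 0.26, the lowest without YSG male.

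At a threshold of 20 per 10000, with fewer barcodes, 414 were called higher and 477 lower and Top2a stood at −0.26; at 5 Top2a stood at −0.13. Among barcodes of 5000 to 10000 UMIs 502 were called higher and 543 lower, with 5 chaperones lower, and Ccdc141, Egfl7 and H2-K1 stood at −0.56, −0.97 and −0.59. Under the planned marker rule for other types, which drops most barcodes, 316 were called higher and 412 lower, with 7 chaperones and 2 immediate early genes lower, and Neat1 stood at −0.54. Without the narrow markers Apod, Ccdc141, H2-K1, Neat1 and Ptgds stood at −0.14, −0.061, −0.028, −0.95 and −0.029, and Egfl7, with almost no UMIs left, at −9.11. State by genotype gave 19 genes with DESeq2, 2 at 3000 or more UMIs, and 0 without either set of other-type barcodes. The medians of the oxidative stress, granule differentiation, glycolysis and splicing lists, −0.02 to −0.05, were above 0 both without TMM and with DESeq2, at 0.0034 to 0.084.

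In the SG and YSG male and the SG and YSG female library the share in the state was 1.29, 3.74, 1.19 and 1.29% at a threshold of 5 and 0.226, 0.609, 0.196 and 0.348% at 20, and YSG male was the highest at each. In SG male it was 0.488% with 5 or more rule UMIs required, 0.510% at 3000 or more UMIs and 0.235% at 5000 to 10000, where YSG female was 0.606%. Under the planned marker rule it was 1.22% in SG male, 1.97% in YSG male and 1.12% in SG female, and after thinning to 2000 UMIs 1.07%, 2.52% and 0.847%.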
